A study of Mus musculus with 6 samples.

Results

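The VEGF family genes described here were the receptor genes Kdr, Flt1 and Flt4, the neuropilin co-receptor genes Nrp1 and Nrp2, and the ligand genes Vegfa, Vegfb, Vegfc and Pgf. They were taken from the count table by symbol, and all 9 were found among its 23420 genes and were abundant enough to test among the 13142 genes tested. The tdTom+ group held endothelial cells, from whole E12.5 (embryonic day 12.5) mouse embryos, that carried the red protein tdTomato. The tdTom- group held endothelial cells without it. Every embryo carried Csf1r-iCre, a Cre recombinase under the promoter of the myeloid receptor gene Csf1r, together with a Rosa26 reporter (RosatdTomato) that is switched on by recombination, so that tdTom- cells came from the same genotype. Both groups were gated as PECAM1+ CD45- CD11b- KIT- cells of 3 embryos, with 3 libraries a group, and were amplified by SMART-seq from small inputs. The sort records whether a cell or its ancestors had recombined the reporter, and how many cells escape recombination is not stated in the labels.

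VEGF ligands are secreted dimers that bind receptor tyrosine kinases on endothelial cells. VEGFA acts mainly through VEGFR2 (encoded by Kdr), VEGFB and placental growth factor (PGF) bind VEGFR1 (Flt1), and VEGFC binds VEGFR3 (Flt4) and, after processing, VEGFR2. Neuropilins hold VEGF and class 3 semaphorins beside these receptors. NRP1 is known for arterial endothelium and for VEGFA, and NRP2 for venous and lymphatic endothelium and for VEGFC, while VEGFR3 marks lymphatic vessels, fenestrated vessels and sprouting capillaries.

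Total counts ran from 8919887 to 11767956 per library. Levels are given as CPM (counts scaled to a common library size) on library sizes scaled by the trimmed mean of M-values (TMM), and a floor of 3 counts was 0.254 to 0.336 CPM. All 14 core endothelial marker genes were detected, with a summed level of 8376 to 9267 CPM in tdTom+ and 8631 to 9031 CPM in tdTom- libraries. In the edgeR test 0 of them passed in either direction, and 1 had an unadjusted p under 0.05, beside 10.7% of all genes tested. The libraries numbered 3 came from female cells in both groups, with Xist at 1224 counts in tdTom+ and 571 in tdTom- and at most 8 in the others. The Y-chromosome gene Ddx3y had 12 and 2 counts in the tdTom+ and tdTom- libraries numbered 3 and 1204 to 1537 in the others. The libraries of a group thus did not all come from the same embryo. Nothing in the labels says that each of the 3 libraries of a group came from a separate embryo, so p-values measure the spread between these libraries. Because whole sorted fractions were sequenced, more cells of one vessel type and more RNA per cell cannot be told apart.

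The window before the first RefSeq start site was GC-rich in each member. RefSeq promoters (GRCm38.p6, the mm10 build) were matched for 9 of 9 genes. In the 250 bases before the first listed start site, GC content ran from 59.2% in Vegfa to 76.4% in Vegfb, against a median of 52.4% over 32851 promoters. The GC box, GGGCGG or its reverse complement CCGCCC, was found in this window in 9 of 9 members and in 32.7% of all promoters, but in 75.0% of the promoters with at least the lowest GC content of any member window. The ETS core GGAA (or TTCC) was found in 8 of 9 members, all but Pgf, and in 93.4% of all promoters. The GATA motif AGATAA (or TTATCT) was found in Vegfa alone, against 9.99% of all promoters, and the SOX motif ACAAT (or ATTGT) and the hypoxia response core ACGTG (or CACGT) in 0 members, against 27.7% and 16.6%. These counts use the first listed start site of each gene and do not cover sequence further upstream, where a motif would be missed. Vegfa and Pgf have a second start site, which lay 7206 and 1808 bases inside the GENCODE gene. There the Vegfa window held 1 hypoxia response core, 1 GC box and no GATA motif. The second Pgf window held none of the 5 motifs. Coding bases were not screened for, so matches before a second start are matches within the gene and not promoter elements. Motifs were read on both strands and could overlap, and a match is a run of letters, not a measured binding site. RefSeq and GENCODE place several starts differently: the first RefSeq start lay 416 bases inside the GENCODE gene in Flt4, 477 in Pgf, 469 in Nrp1, 32 in Nrp2 and 3 in Kdr. The Flt4 and Pgf windows were wholly within exon bases that GENCODE annotates as untranslated, so for these 2 genes the motif counts describe transcribed sequence, and their letters are not shown. The windows of Nrp2, whose level rose, and of Nrp1 and Kdr, which overlapped between the groups, are shown for comparison of their GC boxes, in capitals, without the bases that GENCODE annotates as untranslated. They are written 5′ to 3′ on the gene's strand, and are chr1:62703067-62703284 (plus strand) for Nrp2, chr8:128358823-128359072 (plus strand, within the GENCODE gene) for Nrp1 and chr5:75978459-75978705 (minus strand) for Kdr.
Nrp2: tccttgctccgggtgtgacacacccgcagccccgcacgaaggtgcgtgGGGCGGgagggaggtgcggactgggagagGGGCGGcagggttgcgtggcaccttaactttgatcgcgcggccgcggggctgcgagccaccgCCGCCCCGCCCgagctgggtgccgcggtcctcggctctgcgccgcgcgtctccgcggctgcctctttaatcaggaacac
Nrp1: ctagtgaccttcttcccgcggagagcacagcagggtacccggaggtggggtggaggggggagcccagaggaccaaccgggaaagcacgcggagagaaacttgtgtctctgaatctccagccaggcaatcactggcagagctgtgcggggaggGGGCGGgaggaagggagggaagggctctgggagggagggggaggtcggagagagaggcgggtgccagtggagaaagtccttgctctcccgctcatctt
Kdr: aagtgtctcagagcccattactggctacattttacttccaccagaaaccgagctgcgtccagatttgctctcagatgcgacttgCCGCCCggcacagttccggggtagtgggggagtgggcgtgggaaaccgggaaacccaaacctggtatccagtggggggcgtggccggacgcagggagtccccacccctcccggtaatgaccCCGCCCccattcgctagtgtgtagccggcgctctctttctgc
The Nrp2 window held 5 GC boxes, of which a pair overlapped and 4 are in the letters shown. Among the first windows of the other members, Vegfb held 4, Flt4 and Flt1 3 each, Kdr, Pgf, Vegfa and Vegfc 2 each and Nrp1 1. Whether the number of GC boxes goes with a difference in level between the groups was not tested.

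The design sets cells whose lineage had used Csf1r-iCre against the remaining embryonic endothelium, here for the level of each VEGF system gene. Of the 9 genes, 2 rose in tdTom+ cells, the receptor gene Flt4 and the co-receptor gene Nrp2, and 0 fell. Over all genes tested, 0.769% were called higher and 0.814% lower (quasi-likelihood test in edgeR, p adjusted by Benjamini-Hochberg to under 0.05). The ligand gene Pgf had a larger fold change than either but missed the threshold. All 3 tdTom+ libraries lay above all 3 tdTom- libraries for Flt4, Nrp2 and Pgf, and for 7.88% of all genes tested. For 0 of the 9 genes did all tdTom+ libraries lie below all tdTom- libraries, against 9.35% of all genes tested. An unadjusted p under 0.05 was found for the same 3 members, Flt4, Nrp2 and Pgf, and for 10.7% of all genes tested. The median log2 fold change of the 9 genes was 0.08, beside -0.00026 over all genes tested, and their median size of change without regard to sign was 0.09, beside 0.16.

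**Figure D1:**
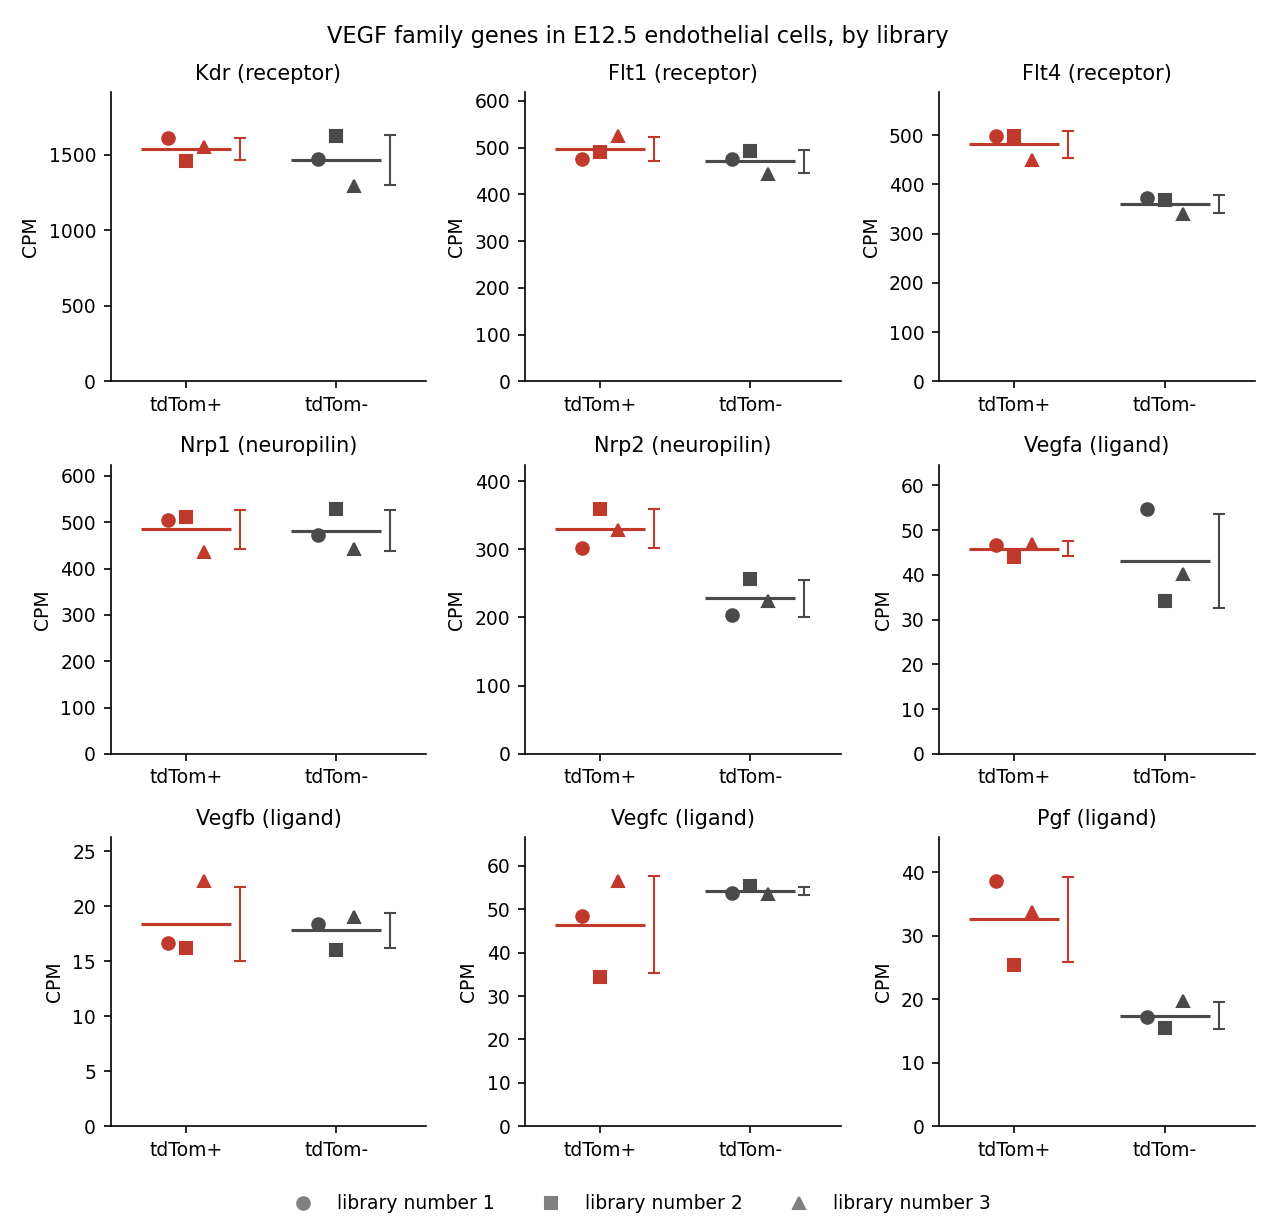
Level of each gene in CPM (y axis, from 0) in the 3 tdTom+ libraries (left, red) and the 3 tdTom- libraries (right, grey), with symbols for the library number, a line at the mean and a bar of 1 SD. The groups are apart for Flt4, Nrp2 and Pgf and overlap for the other 6 genes.

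Among the receptors, Kdr was the most abundant and the fold change was largest for Flt4. Kdr (ENSMUSG00000062960, chromosome 5, 75932827 to 75978458), which encodes the main signalling receptor for VEGFA, had 1608, 1461 and 1550 CPM in the tdTom+ libraries and 1475, 1623 and 1292 CPM in the tdTom- libraries. The highest value was that of tdTom- library 2 and the lowest that of tdTom- library 3, so the groups overlapped. Its log2 fold change was 0.07 ± 0.08 (SE, 95% interval -0.11 to 0.25, edgeR adjusted p = 0.843).

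Flt1 (ENSMUSG00000029648, chromosome 5, 147561604 to 147726011) encodes VEGFR1, which binds VEGFA tightly with weak kinase activity and is also made as a secreted decoy form. Gene counts do not separate the forms. Flt1 had 475, 490 and 524 CPM in the tdTom+ libraries and 476, 492 and 444 CPM in the tdTom- libraries, and the groups overlapped. The log2 fold change was 0.08 ± 0.07 (SE, 95% interval -0.08 to 0.23, edgeR adjusted p = 0.788). A rise of more than 1.19-fold in Kdr or 1.17-fold in Flt1 lay outside these intervals.

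Flt4 (ENSMUSG00000020357, chromosome 11, 49609263 to 49652739) encodes VEGFR3, the receptor of VEGFC. It had 5670, 5440 and 4812 counts in the tdTom+ libraries, or 497, 498 and 449.8 CPM, and 3844, 4346 and 3035 counts in the tdTom- libraries, or 373, 368 and 339.8 CPM. Every tdTom+ library was above every tdTom- library, and the library numbered 3 was the lowest of each group. The Flt4 mean was 482 ± 27.6 CPM for tdTom+ cells, against 360.2 ± 17.8 CPM for tdTom- cells (SD, n = 3 each). This was 1.34-fold (95% interval 1.196 to 1.495), with edgeR adjusted p = 0.0191, and the gene ranked 99 by p among the genes tested. Leaving out tdTom+ library 1 or 2, or tdTom- library 1, 2 or 3, took the adjusted p to 0.0668, 0.058, 0.0851, 0.0658 and 0.106. With libraries scaled by their core endothelial counts it was 0.0651. The log2 fold change stayed between 0.38 and 0.47 in all 14 settings tried.

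The neuropilin genes differed in the same way from each other. Nrp1 (ENSMUSG00000025810, chromosome 8, 128358604 to 128503363) had 505, 512 and 436 CPM in the tdTom+ libraries and 474, 529 and 443 CPM in the tdTom- libraries. The library numbered 3 was the lowest of each group, the groups overlapped, and the log2 fold change was 0.01 ± 0.09 (SE, 95% interval -0.19 to 0.20, edgeR adjusted p = 0.989).

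Nrp2 (ENSMUSG00000025969, chromosome 1, 62703285 to 62818695), the co-receptor for VEGFC and for semaphorin 3F, had 3446, 3927 and 3519 counts in the tdTom+ libraries, or 302, 359 and 329 CPM. In the tdTom- libraries it had 2096, 3031 and 1999 counts, or 203, 257 and 224 CPM. The lowest tdTom+ library was above the highest tdTom- library, and the library numbered 2 was the highest of each group. The Nrp2 mean was 330.2 ± 28.6 CPM for tdTom+ cells, against 228 ± 26.9 CPM for tdTom- cells (SD, n = 3 each), or 1.45-fold (95% interval 1.24 to 1.69, edgeR adjusted p = 0.0258). The call did not hold when tdTom+ library 2 or 3, or tdTom- library 1 or 3, was left out, with adjusted p = 0.0793, 0.0504, 0.149 and 0.130. It held with libraries scaled by core endothelial counts (0.041), and the log2 fold change was 0.46 to 0.63 over the 14 settings.

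Ratios of 2 genes within a library do not depend on how libraries are scaled. The ratio of Flt4 to Kdr counts was 0.309, 0.341 and 0.290 in the tdTom+ libraries and 0.253, 0.227 and 0.263 in the tdTom- libraries, without overlap. The Nrp2 to Nrp1 ratio was 0.598, 0.702 and 0.754 in the tdTom+ libraries and 0.429, 0.485 and 0.506 in the tdTom- libraries, again without overlap. The mean log2 ratio was 0.34 higher in tdTom+ libraries for Flt4 to Kdr and 0.53 higher for Nrp2 to Nrp1. Each had p = 0.10 in an exact two-sided permutation test, the smallest p that 3 libraries against 3 allow, and 0.20 after adjustment over the 4 ratios computed. Flt1 to Kdr had a difference in log2 ratio of -0.0018 (exact permutation p = 1), with 0.295, 0.336 and 0.338 in tdTom+ and 0.323, 0.303 and 0.344 in tdTom- libraries. Within a library, Flt4 and Nrp2 thus stood higher beside their relatives in every tdTom+ library, while the design could not bring either ratio under the threshold.

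**Figure D2:**
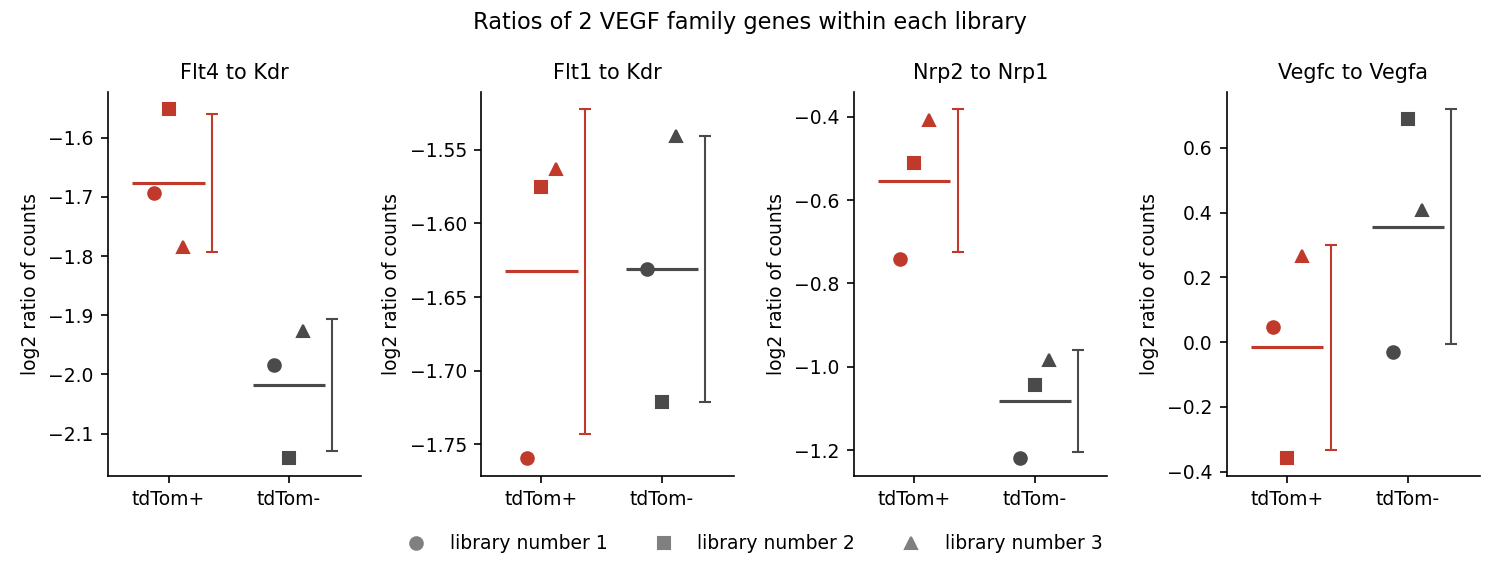
Log2 ratio of the counts of 2 genes within each library (y axis, a different range in each panel) for tdTom+ (left, red) and tdTom- (right, grey) libraries, with the mean and a bar of 1 SD. Flt4 to Kdr and Nrp2 to Nrp1 do not overlap between the groups, and Flt1 to Kdr and Vegfc to Vegfa do.

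The ligand genes were expressed at lower levels than the receptors, and none passed the test. Vegfa (ENSMUSG00000023951, chromosome 17, 46016993 to 46032369), the ligand that drives most vessel growth, had 46.8, 44.0 and 46.9 CPM in the tdTom+ libraries and 54.8, 34.3 and 40.3 CPM in the tdTom- libraries. The tdTom- libraries spread more widely, with a coefficient of variation of 24.5% against 3.54% in tdTom+, and the tdTom+ values lay inside their range. The log2 fold change was 0.09 ± 0.18 (SE, 95% interval -0.31 to 0.49, edgeR adjusted p = 0.923).

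Vegfb (ENSMUSG00000024962, chromosome 19, 6982473 to 6987651), which encodes a VEGFR1 ligand, had 16.7, 16.2 and 22.2 CPM in the tdTom+ libraries and 18.3, 16.0 and 19.0 CPM in the tdTom- libraries. These overlapped, and the log2 fold change was 0.05 ± 0.22 (SE, 95% interval -0.44 to 0.53, edgeR adjusted p = 0.973). Vegfc (ENSMUSG00000031520, chromosome 8, 54077606 to 54187096), the ligand of VEGFR3, had 48.3, 34.3 and 56.4 CPM in the tdTom+ libraries and 53.6, 55.3 and 53.5 CPM in the tdTom- libraries. Library 2 of tdTom+ was the lowest and library 3 of tdTom+ the highest of all 6. Vegfc was the 1 member with a log2 fold change below 0, at -0.22 ± 0.18 (SE, 95% interval -0.61 to 0.17, edgeR adjusted p = 0.745), and without tdTom+ library 2 the value was -0.05. The Vegfc to Vegfa ratio was 1.03, 0.780 and 1.201 in tdTom+ and 0.979, 1.61 and 1.33 in tdTom- libraries (exact permutation p = 0.30).

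Pgf (ENSMUSG00000004791, chromosome 12, 85166635 to 85177790), which encodes placental growth factor, a ligand of VEGFR1, had 440, 277 and 362 counts in the tdTom+ libraries, or 38.6, 25.4 and 33.8 CPM. In the tdTom- libraries it had 177, 183 and 176 counts, or 17.2, 15.5 and 19.7 CPM. The lowest tdTom+ value exceeded the highest tdTom- value, and library 2 was the lowest of each group. The means were 32.6 ± 6.71 CPM for tdTom+ and 17.5 ± 2.12 CPM for tdTom- cells (SD, n = 3 each). The ratio of 1.87 (95% interval 1.36 to 2.57) was not called (edgeR adjusted p = 0.0653, unadjusted p = 0.00129). It passed with DESeq2 (adjusted p = 0.00767) and without tdTom+ library 2 (edgeR adjusted p = 0.0378). In the authors' deposited table Pgf is listed with a log2 fold change of -0.904 in the direction tdTom- over tdTom+ and an adjusted p of 0.00909. The authors' deposited table gives the same direction for Flt4 (-0.419, adjusted p = 2.22e-05) and Nrp2 (-0.534, adjusted p = 5.05e-05), and adjusted p of at least 0.824 for the other 6 genes.

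**Figure D3:**
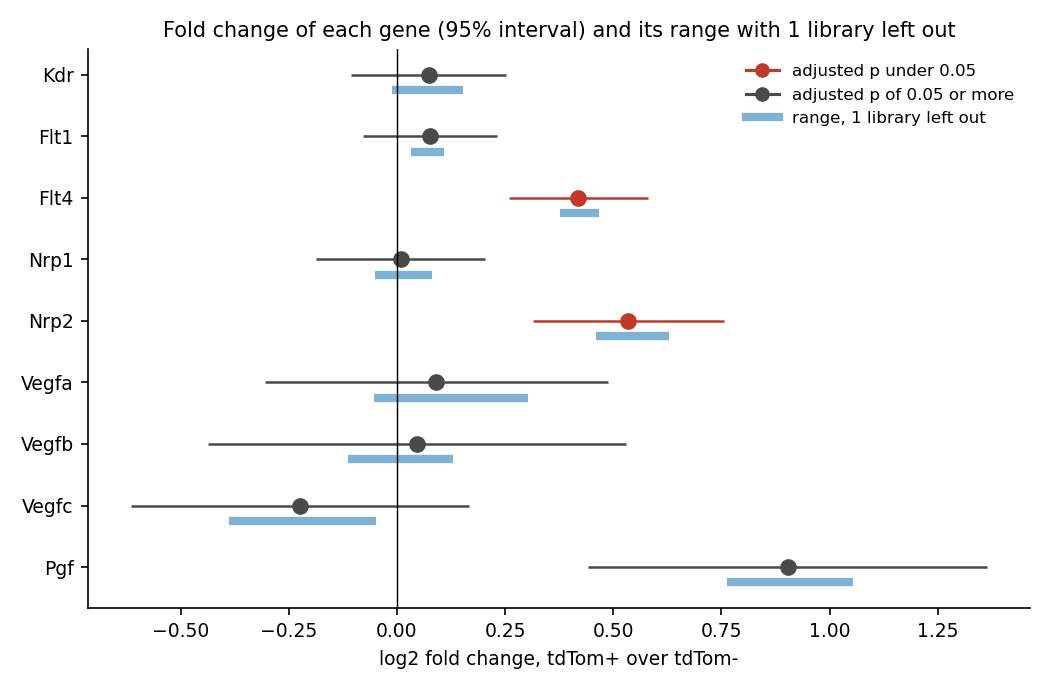
Log2 fold change of each gene, tdTom+ over tdTom- (x axis), with its 95% interval (thin line, edgeR) and, under it in blue, the range of the fold change when 1 of the 6 libraries is left out. Red points passed the threshold (Flt4 and Nrp2), and the interval of Pgf, 0.44 to 1.36, lies above 0 although its adjusted p was 0.0653.

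**Figure D4:**
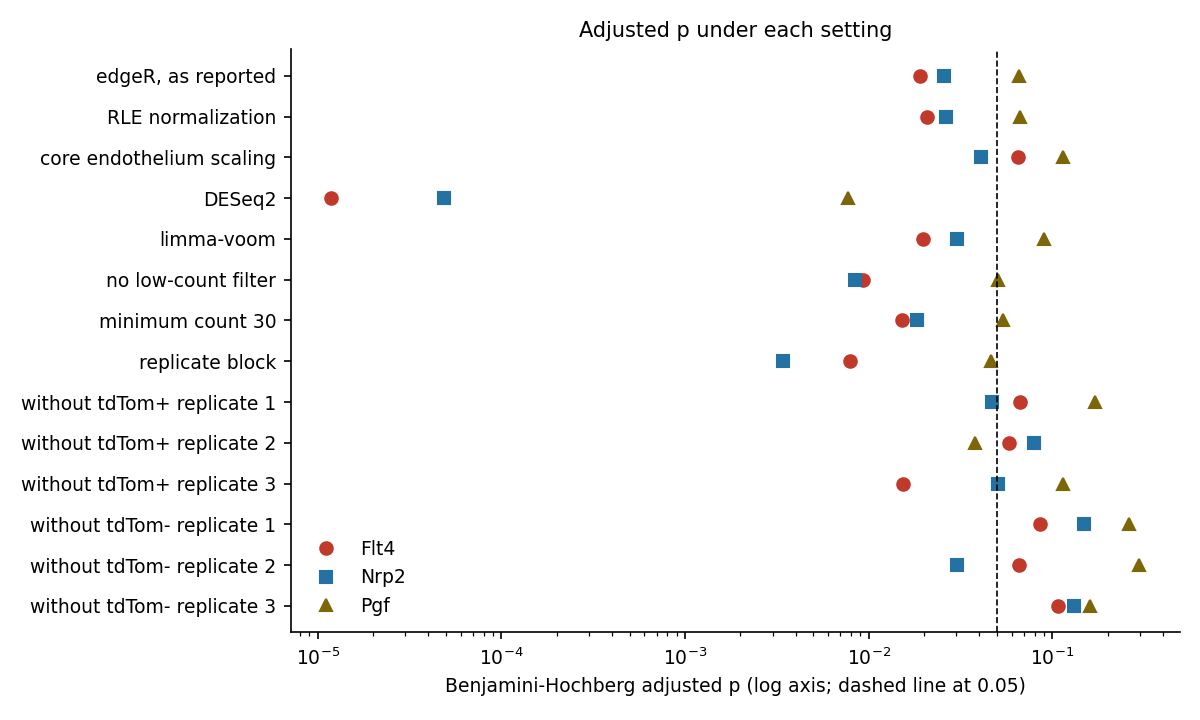
Adjusted p (x axis, log scale, dashed line at 0.05) of Flt4, Nrp2 and Pgf in the reported edgeR test and in 13 other settings. Flt4 passed in 8, Nrp2 in 10 and Pgf in 3 of the 14 settings, and with DESeq2 all 3 passed.

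To set levels of different genes side by side, CPM was divided by the length in kilobases (kb) of the exons of each gene's protein-coding transcripts in GENCODE M21. Per kb, the level of Kdr was 259.9 ± 12.5 CPM per kb in tdTom+ and 247 ± 28.0 CPM per kb in tdTom- cells, the highest of the family. The level of Nrp1 followed at 135 ± 11.6 CPM per kb in tdTom+ and 134 ± 12.2 CPM per kb in tdTom- cells (SD, n = 3 each), and did not overlap with that of its neighbours in the order. In tdTom+ cells the order went on with Flt4 (77.0 CPM per kb), Flt1 (45.3) and Nrp2 (31.8), each apart from the next, and then Vegfc (18.9), Pgf (15.7), Vegfb (14.3) and Vegfa (13.0), whose libraries overlapped with those of their neighbours. In tdTom- cells Flt4 (57.6 CPM per kb) and Flt1 (43.0) were followed by Vegfc (22.1) and Nrp2 (22.0), which overlapped, and Pgf was last at 8.39 CPM per kb, below every library of Vegfa. Flt1 and Nrp2 have transcripts that end at different places, so their lengths are uncertain. With the length of the longest transcript, which was tried only once the values were known, Flt1 ranked 3 and Flt4 4 in tdTom- cells, they overlapped in tdTom+ cells, and Nrp2 ranked 5 in both.

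The genes whose pattern over the 6 libraries was most like that of Flt4 were Cd47, which encodes a surface protein that inhibits phagocytosis, Lamp2, which encodes a lysosomal membrane protein, and Gimap8, a GTPase gene. Their centred log2 levels differed from those of Flt4 by a root mean square of 0.044, 0.047 and 0.050, among 9942 genes compared. Nrp2 itself ranked 399 by this measure, at 0.15. The genes nearest to Nrp2 were Casp4, an inflammatory caspase gene, Arrdc4, an arrestin-domain gene, and Cpox, a haem synthesis gene, at 0.057, 0.074 and 0.078. Of these 6 genes Cd47 passed the test, with a log2 fold change of 0.39 ± 0.08 (SE, adjusted p of 0.0403 in edgeR).

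The other genes of the pathway were described in 6 lists, which hold 138 distinct genes abundant enough to test. Of these, 3 rose and 0 fell, or 2.17%, beside 1.58% of all genes tested called in either direction, and their median log2 fold change was -0.02. The lists were drawn up with earlier results of these data known, so they do not lend independent support to a direction.

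Receptor partners and trafficking genes held 2 of the 3 rises, with 0 falls and 26 of 28 not passing (median log2 fold change 0.02). Itgb3, the integrin beta3 gene whose product associates with VEGFR2 on endothelium and forms the fibrinogen receptor on platelets, had 39.6, 66.6 and 28.7 CPM in the tdTom+ libraries and 4.27, 4.99 and 6.16 CPM in the tdTom- libraries. It rose 8.77-fold (edgeR adjusted p = 0.00094). The megakaryocyte and platelet markers moved with it, with 7 of 12 tested higher and 0 lower, beside 0.769% and 0.814% of all genes tested. Their summed level was 264 to 489 CPM in tdTom+ against 37.7 to 53.0 CPM in tdTom- libraries. Their part in the Itgb3 result was not tested. No marker of this list was at 0 in a whole group. Dab2, which encodes an endocytic adaptor that takes up VEGF receptors, had 433, 270.1 and 373 CPM in the tdTom+ libraries and 202, 199 and 190.2 CPM in the tdTom- libraries. It rose 1.82-fold (edgeR adjusted p = 0.0138), and it missed the threshold when tdTom- library 1 (0.0636), 2 (0.0658) or 3 (0.1004) was left out and with core endothelial scaling (0.0562).

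The VEGFC axis and lymphatic list had 1 of 15 tested genes higher and 0 lower, and a median log2 fold change of 0.26. The riser was the hyaluronan receptor gene Lyve1, known from lymphatic and from liver sinusoidal endothelium, with 545, 553 and 619 CPM in the tdTom+ libraries and 184, 165 and 200.3 CPM in the tdTom- libraries (edgeR adjusted p = 2.66e-05). Prox1, the transcription factor gene that sets lymphatic identity, had 62.0, 65.0 and 65.2 CPM in the tdTom+ libraries and 33.6, 44.0 and 45.8 CPM in the tdTom- libraries. Its groups did not overlap, and the test missed the threshold (log2 fold change 0.64 ± 0.15 SE, edgeR adjusted p = 0.0653). Vegfd, the other VEGFR3 ligand, listed under its older symbol Figf, and Ccbe1, needed for VEGFC processing, were too low to test, with at most 0.789 and 2.80 CPM in any library. DESeq2 called 3 genes of this list higher, adding Prox1 and the matrix glycoprotein gene Reln (adjusted p = 0.00567 and 0.0465).

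**Figure D5:**
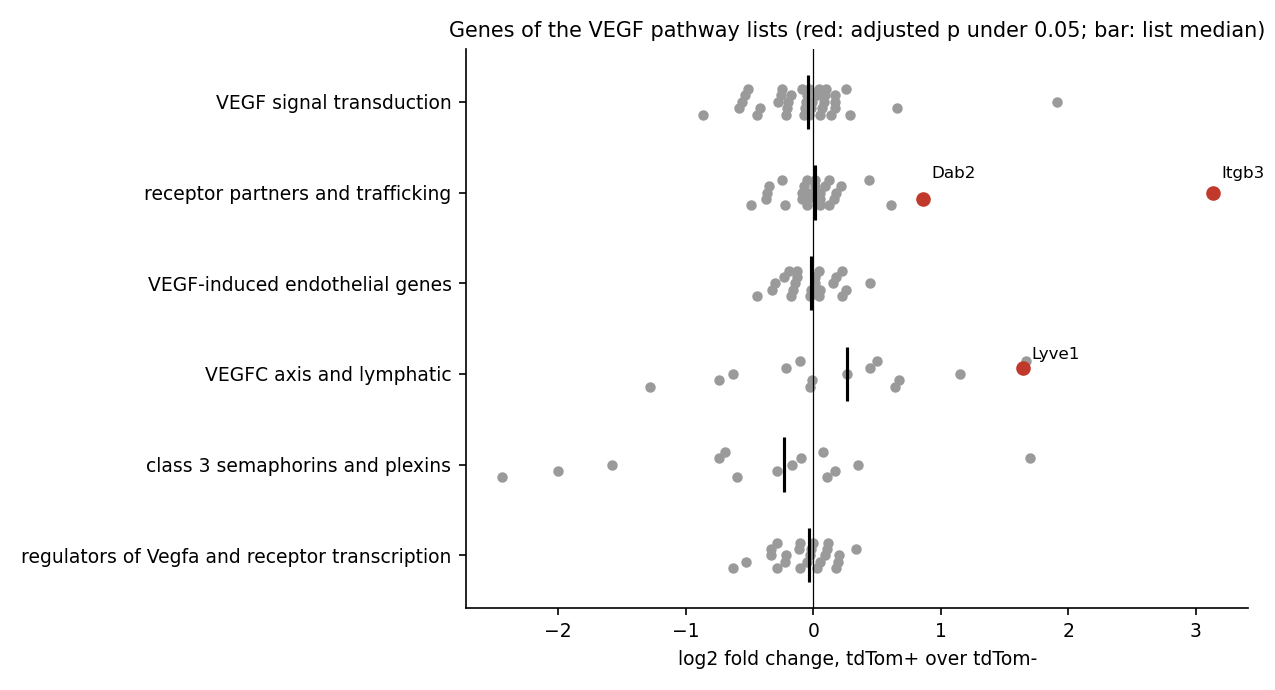
Log2 fold change, tdTom+ over tdTom- (x axis), of each tested gene in the 6 pathway lists (rows; points are spread vertically for legibility), with a black bar at the list median. Red points are the 3 genes that passed the threshold, Itgb3, Dab2 and Lyve1.

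The remaining 4 lists had 0 calls in either direction. Of 38 signal transduction genes, from phospholipase C to the MAP kinases, 7 had an unadjusted p under 0.05, beside 10.7% of all genes tested. The smallest p were those of Pik3cb, a PI3-kinase subunit gene, with a log2 fold change of -0.86 ± 0.27, and Mapk3, which encodes ERK1, with -0.28 ± 0.09 (SE, adjusted p of 0.197 and 0.211 in edgeR). Of 23 tested genes that VEGF induces in endothelium, including Dll4, Esm1 and Apln, 3 had an unadjusted p under 0.05. Spry1, a feedback inhibitor of receptor tyrosine kinases, had a log2 fold change of -0.32 ± 0.12 and Myc, a growth regulator, one of 0.23 ± 0.08 (SE, adjusted p of 0.305 and 0.319 in edgeR). The list's median was -0.02.

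Of 14 class 3 semaphorins, plexins and their partners, which signal through neuropilins, 2 had an unadjusted p under 0.05, beside 10.7% of all genes tested. The median of this list was -0.23. Sema3g, which encodes a semaphorin that binds NRP2, had 15.4, 12.4 and 19.6 CPM in the tdTom+ libraries and 28.5, 20.4 and 27.9 CPM in the tdTom- libraries. Its log2 fold change was -0.69 ± 0.24 (SE, adjusted p of 0.260 in edgeR). Nrcam, a neuronal adhesion gene, was at 0 to 1.496 CPM in tdTom+ and 1.95 to 3.81 CPM in tdTom- libraries (edgeR adjusted p = 0.466). Of 24 transcriptional regulators of the pathway 6 had an unadjusted p under 0.05, led by Foxc2 with a log2 fold change of -0.63 ± 0.20 and Sox7 with -0.22 ± 0.08 (SE, adjusted p of 0.223 and 0.271 in edgeR). The oxygen-sensing factor genes Hif1a and Epas1 had log2 fold changes of -0.02 ± 0.10 and 0.11 ± 0.12 (SE). DESeq2 called 0 genes in each of these 4 lists.

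Markers of liver sinusoidal, arterial and brain endothelium differed between the groups beside the Flt4 and Nrp2 results. The marker lists, too, were drawn up with earlier results of these data known, so they do not lend independent support to a direction. Over all genes tested, edgeR called 0.769% higher and 0.814% lower. Of the 12 tested liver sinusoidal endothelial markers 10 rose and 0 fell. The list summed to 2568 to 2974 CPM in tdTom+ and 1058 to 1202 CPM in tdTom- libraries. Lymphatic markers summed to 1652 to 1789 CPM in tdTom+ and 1093 to 1244 CPM in tdTom- libraries, with 1 of 7 tested genes called, Lyve1, which is on both lists, and with Ccl21a at 0 counts in all 6 libraries. Lyve1 was left out once the values were known. The lymphatic sum was then 1139, 1236 and 1033 CPM in tdTom+ and 908, 1049 and 1044 CPM in tdTom- libraries, which overlapped. Its largest parts were Mmrn1 (mean 604 CPM in tdTom+ and 518 CPM in tdTom-) and Sox18 (310 and 334 CPM). Of the other 6 tested genes edgeR called 0, and 3 had an unadjusted p under 0.05, beside 10.7% of all genes tested. These 3, Prox1, Reln and Nr2f2, had every tdTom+ library above every tdTom- library, as did 7.88% of all genes tested. Pdpn, Mmrn1 and Sox18 overlapped between the groups. Arterial markers summed to 947 to 1019 CPM in tdTom+ and 1220 to 1323 CPM in tdTom- libraries, with 2 of 11 lower, and brain endothelial markers to 1378 to 1688 CPM in tdTom+ and 2185 to 2291 CPM in tdTom- libraries, with 6 of 12 lower. The part of these vessel types in the Flt4, Nrp2 and Pgf results was not tested. Macrophage and myeloid markers summed to 26.2 to 46.3 CPM in tdTom+ and 21.5 to 28.2 CPM in tdTom- libraries, with 0 of 8 tested genes called and 1 at an unadjusted p under 0.05. Mesenchymal and mural markers summed to 180.5 to 684 CPM in tdTom+ and 488 to 1150 CPM in tdTom- libraries, hepatoblast markers to 161 to 174 CPM in tdTom+ and 209.6 to 456 CPM in tdTom- libraries and neural markers to 251 to 274 CPM in tdTom+ and 289.6 to 308 CPM in tdTom- libraries. Of these 3 lists edgeR called 0 of the 12, 8 and 8 tested genes. An unadjusted p under 0.05 was found for 2, 2 and 3 of them, beside 10.7% of all genes tested. Single genes held most of 2 of these sums. In the hepatoblast sum these were Trf (mean 120 CPM in tdTom+ and 157 CPM in tdTom-) and Dlk1 (32.5 and 106 CPM). In the neural sum it was Nes (208 and 215 CPM). The hepatoblast genes Afp and Ttr were highest in tdTom- library 3, at 54.4 and 82.5 CPM.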

How the data were processed

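Endothelial cells were sorted from E12.5 mouse embryos, amplified with the SMART-seq v4 kit and made into libraries with Nextera XT, per the labels' protocols. The values used were the deposited table's whole-number read counts per gene, without normalization. In the submitters' processing notes featureCounts 1.4.6, Picard 2.7.1.1, STAR 2.5.2b and Trimmomatic 0.36.4 are listed beside DESeq2 and mm10, with no role or order. Log2 fold changes and p-values by the authors, tdTom- over tdTom+, are in the same table. The 6 normalized columns in the deposited table were not used. The kit does not mark strand, and no other annotated gene but a microRNA within Nrp1 shares exon bases with a member.

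The test was edgeR 4.0.16 (R 4.3.3) on these counts: TMM factors, a filterByExpr minimum of 10 counts and a robust, two-sided quasi-likelihood F-test on group alone, adjusted by Benjamini-Hochberg over 13142 genes. Standard errors are the size of the log2 fold change over the root of F, and intervals are 95%, from the same fit. Alternatives used DESeq2 1.42.0, limma-voom (limma 3.58.1), RLE factors, library sizes set to the core endothelial counts, other filters, a replicate block and leaving out each library. The test was tested on simulated data. No 2 libraries of a group agreed within sampling noise (mean chi-square per gene of 7.85 to 19.0). Floors cover counting error only, as amplified reads are not independent molecules.

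Named genes were the members, every pathway gene that passed and at least 2 a list by smallest p, and the 3 genes nearest to Flt4 and to Nrp2 among genes whose log2 CPM averaged 3 or more. Dll4, Esm1, Apln, Hif1a and Epas1 were added as textbook members. Genes too low to test, those that DESeq2 added and single lymphatic, hepatoblast and neural markers were named after their values were seen. The members and lists were chosen with earlier results of these data known. Gene positions and lengths come from GENCODE M21 (GRCm38), and promoters from RefSeq (GRCm38.p6).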

Additional observations from a re-analysis of the deposited data

How the results depend on the processing

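Over every alternative run, the signs of Flt1, Flt4, Nrp2, Vegfc and Pgf were kept. Those of Kdr, Nrp1, Vegfa and Vegfb, which never passed, turned when 1 library was left out, over ranges of log2 fold change of -0.012 to 0.15, -0.052 to 0.080, -0.053 to 0.30 and -0.11 to 0.13. With 1 library left out Flt4 ran from 0.38 to 0.47 (edgeR adjusted p = 0.0153 to 0.106), Nrp2 from 0.46 to 0.63 (0.0301 to 0.149), Pgf from 0.76 to 1.05 (0.0378 to 0.297), Flt1 from 0.03 to 0.11 and Vegfc from -0.39 to -0.05, and the number of members called higher was 0 to 1. Under core endothelial scaling it was 1, as Flt4 lost its call at 0.41 (adjusted p = 0.0651), and receptor partners held 1 rise in place of 2. DESeq2 made Pgf pass at 0.90 (adjusted p = 0.00767), called 217 genes higher and 267 lower in the whole table, where edgeR called 101 and 107, and gave 1 lower receptor partner (Efnb2) and 3 higher VEGFC axis genes. Leaving out 1 library gave 37 to 97 higher and 25 to 92 lower genes in the whole table. The Flt1 to Kdr ratio difference ranged from -0.047 to 0.062 with 1 library left out. Gene length moved the ranks of Flt4 to 4, Flt1 to 3, Nrp2 to 5 and Vegfc to 6 in tdTom- cells. The median of all genes moved by under 0.1 in each setting.

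Deviations of same-numbered libraries from their group means correlated at r = 0.11, 0.089 and 0.16 across genes. Each library correlated best with its own number, and the libraries numbered 3 were the female ones in both groups. Both groups came from 3 embryos, but no label ties a number to an embryo, so the match of numbers is a hint from the data. With the number as a replicate block, Pgf passed at a log2 fold change of 0.89 (edgeR adjusted p = 0.0463), 3 VEGFC axis genes were higher (Lyve1, Prox1 at adjusted p = 0.0463 and Reln at 0.0485), and 128 genes were higher and 167 lower in the whole table, while Flt4 and Nrp2 passed at 0.00786 and 0.00343. The 4 ratios had exact permutation p of at least 0.25 within numbers, the smallest that 3 pairs allow. The cause of these differences was not tested. At the lowest levels, Vegfb with 170 to 238 counts a library, the depth left a 95% interval of 0.739 to 1.44-fold.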

Other observations

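The members did not mark out the same tdTom+ library. Among the tdTom+ libraries, number 2 had the highest Nrp2 (359 CPM) and the lowest Pgf (25.4 CPM), Vegfc (34.3 CPM) and Kdr (1461 CPM), while its Flt4 (498 CPM) was within 1 CPM of that of library 1 (497 CPM). The same library had the highest summed level of megakaryocyte and platelet markers, 489 CPM against 264 and 317 CPM in tdTom+ libraries 1 and 3, and of core endothelial markers, 9267 CPM against 8376 and 8820 CPM. Mesenchymal and mural markers summed to 684 CPM in tdTom+ library 3, against 256 and 181 CPM in tdTom+ libraries 1 and 2. Vegfb (22.2 CPM) and Vegfc (56.4 CPM) were highest in that library too. The tdTom- group differed: its library 1 had the highest sum of these markers, 1150 CPM. Its Vegfb (18.3 CPM) was below that of tdTom- library 3 (19.0 CPM), and its Vegfc (53.6 CPM) below that of tdTom- library 2 (55.3 CPM). These are values of single libraries, with no test.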
